A study of Homo sapiens with 21 samples.

Results

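DNA replication licensing and fork genes are described here in Hs578T cells, an established triple-negative breast cancer (TNBC) cell line. The 50 genes were taken by name from the deposited count table, which lists 28395 genes, and all 50 were present and passed the filter on low counts that left 16036 tested genes. The study asked whether the tyrosine kinase inhibitors lapatinib and nilotinib make TNBC cells more sensitive to THZ531, a covalent inhibitor of the transcriptional kinases CDK12 and CDK13. PolyA-selected RNA was sequenced from cells collected at 8 h in 7 groups of 3 libraries. The groups were the solvent DMSO, 0.1 μM THZ531, 3.16 μM lapatinib, 1.0 μM nilotinib, 0.1 μM THZ531 with 3.16 μM lapatinib (the lapatinib combination), 0.1 μM THZ531 with 1.0 μM nilotinib (the nilotinib combination) and 1.0 μM THZ531 alone. All groups were the same cell line at the same time point, and every treatment was compared with the same 3 DMSO libraries, so that the comparisons with DMSO are not independent of each other. The study describes the libraries of a group as coming from independent experiments, although the labels do not say which libraries belong to the same experiment.

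Origins of replication are licensed in G1, when the origin recognition complex (ORC), CDC6 and CDT1 load the ring of MCM2 to MCM7 around DNA, and geminin binds CDT1 to prevent reloading later in the cycle. At the start of S phase the kinase CDC7 with its activator DBF4 helps to recruit CDC45 and the GINS complex to the ring, which together form the CMG helicase. Polymerase alpha-primase then starts each new strand, the RFC complex loads the PCNA clamp, polymerases delta and epsilon extend the strands, RPA covers single-stranded DNA, and ribonucleotide reductase, thymidylate synthase and thymidine kinase supply nucleotides. Many of these genes are textbook targets of the E2F transcription factors.

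The deposited values were raw counts per gene, with totals of 97612207 to 112229052 per library, of which the 50 genes held 0.395% to 0.497%. Replicates of a group correlated at 0.990 to 0.995 (Pearson's r of log2 levels). Levels are given as CPM, counts relative to library sizes that were scaled with TMM (trimmed mean of M-values), and tests are edgeR's quasi-likelihood tests with Benjamini-Hochberg adjustment over the 16036 genes, called at an adjusted p-value under 0.05. TMM takes most genes as unchanged, so the libraries were also scaled to the 13 mRNAs encoded in mitochondria, where another RNA polymerase transcribes. These held 1.25% ± 0.0895 of the counts with DMSO (SD, n = 3), 1.60% ± 0.139 with the lapatinib combination, 1.56% ± 0.115 with the nilotinib combination and 1.53% ± 0.219 with 1.0 μM THZ531. Under that scaling the median log2 fold change (FC) of all tested genes moved from near 0 to -0.69 with the lapatinib combination, -0.63 with the nilotinib combination and -0.55 with 1.0 μM THZ531. The mitochondrial share was 1.38% ± 0.114 with lapatinib alone, 1.40% ± 0.149 with nilotinib alone and 1.22% ± 0.0669 with 0.1 μM THZ531. The medians under that scaling were -0.15, -0.18 and 0.01 in these 3 groups, so that the reference also shifted with each inhibitor alone. Of the markers of the cell line, VIM lay between 6395 and 10123 CPM, SPARC between 2661 and 4725, AXL between 1315 and 1889, FN1 between 641 and 2331, CDH2 between 492 and 912 and ZEB1 between 185 and 338. The receptors ESR1 and PGR lay at or below 0.502 and 0.035 CPM and ERBB2 between 24.0 and 42.0, while the epithelial genes CDH1, EPCAM and KRT19 did not exceed 0.368, 0.0875 and 0.063. PECAM1, an endothelial gene, lay between 0.241 and 0.605 CPM. PTPRC, a leukocyte gene, was also low but moved with the treatments, with a mean of 1.05 CPM with DMSO, 1.76 with the lapatinib combination, 1.86 with the nilotinib combination and 2.33 with 1.0 μM THZ531, without overlap with DMSO, and its part in the results was not tested. VIM, SPARC, CDH2, AXL and ZEB1 were also higher, and ESR1 and ERBB2 lower, than with DMSO in these 3 treatments, likewise without overlap.

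In each of the 3 strong treatments (both combinations and 1.0 μM THZ531), the genes divided into members that fell and members that rose relative to TMM scaling. With the lapatinib combination 25 of the 50 genes were lower and 20 were higher than with DMSO, against 37.8% lower and 34.3% higher of all tested genes. With the nilotinib combination 20 were lower and 22 higher (all tested genes: 37.3% and 33.7%), and with 1.0 μM THZ531 20 were lower and 21 higher (36.8% and 33.1%). The falls went further than the rises, as they also did among all tested genes. The lapatinib combination lowered 11 genes beyond a log2 FC of -1, against 21.3% of all tested genes, and the nilotinib combination and 1.0 μM THZ531 lowered 13 and 12 (20.8% and 18.9%), while 0 members rose beyond a log2 FC of 1 in any of the 3 (7.9%, 6.54% and 5.77% of all tested genes). The median log2 FC of the 50 genes was -0.14, -0.04 and -0.03 in the same order, beside -0.01 for all tested genes each time. Scaled to mitochondrial mRNAs, 33, 31 and 29 of the 50 genes were lower, beside 58.4%, 55.9% and 52.5% of all tested genes, and 0 were higher, beside 5.3%, 4.83% and 4.35%, so that every rise below is a rise relative to the TMM scale. Of the members higher on the TMM scale, MCM2, MCM6 and GINS4 with the lapatinib combination and MCM4, GINS4 and POLD1 with the nilotinib combination were called lower under mitochondrial mRNA scaling. In RNA from whole cultures, fewer cells of a kind, such as cells in S phase, and less RNA per cell cannot be told apart.

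**Figure D1:**
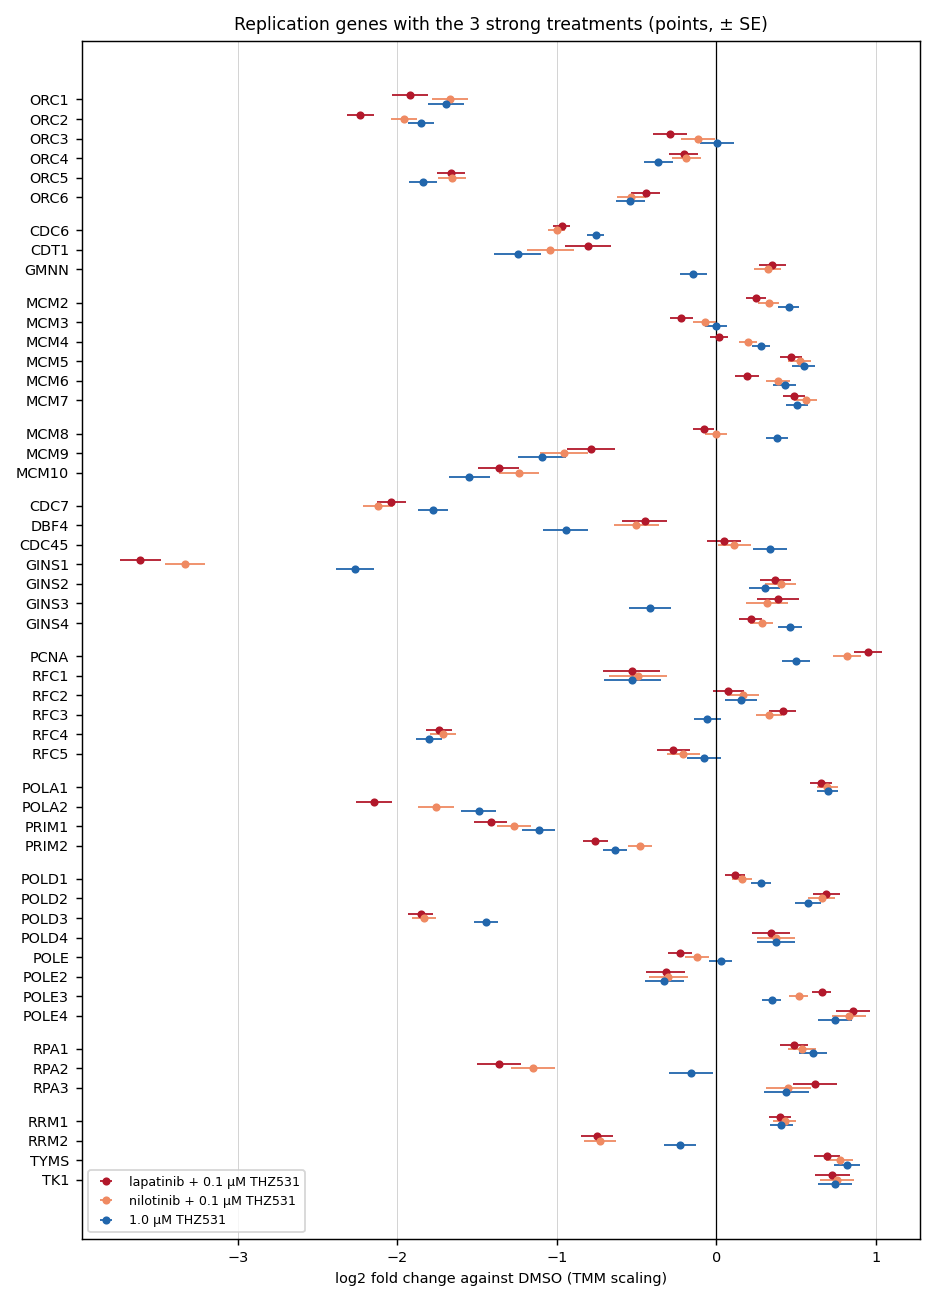
Log2 FC against DMSO (horizontal axis, TMM scaling) of the 50 replication genes, ordered by role, for the lapatinib combination (dark red), the nilotinib combination (orange) and 1.0 μM THZ531 (blue), with bars of ± 1 SE from 3 against 3 libraries. GINS1 lies furthest to the left at -3.61, -3.33 and -2.26, the MCM2 to MCM7 points lie between -0.22 and 0.56, and no point lies beyond 1 on the right, where all rises were lost under mitochondrial mRNA scaling.

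Of the 50 genes, 18 were lower in all 3 strong treatments: ORC1, ORC2, ORC5, ORC6, CDC6, CDT1, MCM9, MCM10, CDC7, DBF4, GINS1, RFC1, RFC4, POLA2, PRIM1, PRIM2, POLD3 and POLE2. This held for 30.8% of all tested genes. Another 17 were higher in all 3 on the TMM scale and in none under mitochondrial mRNA scaling: MCM2, MCM5, MCM6, MCM7, GINS2, GINS4, PCNA, POLA1, POLD2, POLD4, POLE3, POLE4, RPA1, RPA3, RRM1, TYMS and TK1 (27.2% of all tested genes on the TMM scale). Lower beyond a log2 FC of -1 in all 3 were 10 members, namely ORC1, ORC2, ORC5, MCM10, CDC7, GINS1, RFC4, POLA2, PRIM1 and POLD3 (15.3% of all tested genes). On the TMM scale RFC2 was called in none of the 3, as were 17.0% of all tested genes, and GINS3 was the only member called in opposite directions (1.07% of all tested genes). In several complexes some subunits were thus lower and others higher in the same libraries.

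The promoters of 4 members are shown because they carry the same kind of E2F-like letters while the genes moved in different directions. MCM6, PCNA and GINS2 were higher in all 3 strong treatments on the TMM scale and in none under mitochondrial mRNA scaling, whereas CDT1 was lower under both. Each sequence is a stretch of 160 bases that ends 1 base before the outermost RefSeq transcription start site of the gene (GRCh38.p14). For PCNA, which has 2 promoter windows, only the outermost one is shown. Sequences run 5′ to 3′ on the strand of the gene, with capitals where TTTCCCGC, TTTCGCGC, TTTGCCGC or TTTGGCGC match on either strand.
MCM6: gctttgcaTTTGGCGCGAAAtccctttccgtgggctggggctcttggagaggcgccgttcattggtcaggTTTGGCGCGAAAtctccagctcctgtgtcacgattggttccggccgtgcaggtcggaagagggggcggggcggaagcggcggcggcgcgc
PCNA: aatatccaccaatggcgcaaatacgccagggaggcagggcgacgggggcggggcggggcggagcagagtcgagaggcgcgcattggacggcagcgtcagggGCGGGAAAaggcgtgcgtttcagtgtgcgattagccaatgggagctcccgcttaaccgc
GINS2: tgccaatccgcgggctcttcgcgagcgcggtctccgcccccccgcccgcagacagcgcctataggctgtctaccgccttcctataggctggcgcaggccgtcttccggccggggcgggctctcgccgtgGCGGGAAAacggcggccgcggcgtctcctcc
CDT1: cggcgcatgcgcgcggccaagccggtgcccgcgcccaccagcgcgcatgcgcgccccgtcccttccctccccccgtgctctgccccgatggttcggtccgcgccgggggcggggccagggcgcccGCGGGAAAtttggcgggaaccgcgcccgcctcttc
MCM6 (chr2:135876444-135876603, minus strand) has 4 matches that overlap in pairs, starting 152, 148, 90 and 86 bases before the start site. PCNA (chr20:5126623-5126782, minus strand) has 1 match at 59 bases, GINS2 (chr16:85688955-85689114, minus strand) 1 at 31 bases and CDT1 (chr16:88803629-88803788, plus strand) 1 at 35 bases. GINS2 and CDT1 therefore hold such letters at nearly the same distance from the start site. RefSeq promoters were matched for 44 of the 50 genes, all except MCM4, MCM5, GINS4, POLD3, RPA2 and RPA3, and in the 250 bases before the start site 15 of the 44 held at least 1 match (34.1%), compared with 5.41% of 12271 tested genes and 3.40% of 27305 genes with a promoter. Of the members called with the lapatinib combination, 9 of the 17 higher ones (52.9%) and 6 of the 23 lower ones (26.1%) held a match. CCAAT on either strand was found in 28 of the 44 (63.6%) and in 41.0% of tested genes, with 12 of the 17 higher (70.6%) and 14 of the 23 lower members (60.9%). Such matches describe letters in a window and do not show binding.

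The origin recognition complex, which marks the places where replication can start, fell in most of its subunits. All 6 subunits were lower with the lapatinib combination, 4 with the nilotinib combination and 5 with 1.0 μM THZ531. For ORC3 the call with the lapatinib combination held in 23 of 31 alternative settings of the analysis. The summed level of the 6 subunits was 187 ± 9.78 CPM with DMSO (SD, n = 3) and 92.8 ± 4.49, 99.5 ± 6.32 and 98.4 ± 2.92 with the lapatinib combination, the nilotinib combination and 1.0 μM THZ531. ORC2 (chromosome 2, 200908977 to 200963660, minus strand), a subunit of the ORC core, had 43.8, 40.5 and 40.9 CPM in the DMSO libraries, 9.36, 9.03 and 8.26 with the lapatinib combination, 12.0, 10.8 and 9.42 with the nilotinib combination and 11.4, 12.3 and 11.1 with 1.0 μM THZ531. All 9 libraries of the strong treatments lay far below all DMSO libraries, whereas the 9 libraries of 0.1 μM THZ531, lapatinib or nilotinib alone (the weak treatments) spanned 35.1 to 43.1 CPM (median 42.0). The log2 FC was -2.23 ± 0.083 (SE, adjusted p = 1.04e-14), -1.96 ± 0.082 (adjusted p = 5.68e-14) and -1.85 ± 0.082 (adjusted p = 2.58e-13). ORC1, the ATPase subunit that is regulated through the cell cycle, fell by 1.92, 1.67 and 1.70 on the log2 scale, and ORC5 by 1.67, 1.66 and 1.84. ORC6, which helps to recruit the helicase, fell less, by 0.44, 0.53 and 0.54.

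ORC4, another ATPase subunit of the complex, moved least with the lapatinib combination. Its libraries had 31.4, 26.5 and 31.1 CPM with DMSO, 25.8, 26.8 and 24.7 with the lapatinib combination, 26.7, 25.4 and 26.0 with the nilotinib combination and 22.8, 21.3 and 25.1 with 1.0 μM THZ531. The first 3 groups overlapped and only the last lay wholly below DMSO. The log2 FC was -0.21 with the lapatinib combination (adjusted p = 0.0477), -0.19 with the nilotinib combination (adjusted p = 0.0679) and -0.36 with 1.0 μM THZ531 (adjusted p = 0.00136). The first call stood at the threshold and was lost when any of 13 libraries was left out, for example at -0.16 without DMSO replicate 1, while without DMSO replicate 2 the nilotinib combination was called at -0.26. The ratio of ORC2 to ORC4 level per kb of transcript, which no scaling of a library can change, was 2.16 ± 0.165 with DMSO (SD, n = 3) and 0.527 ± 0.0240, 0.629 ± 0.0687 and 0.773 ± 0.104 in the strong treatments in the same order. The pairs of genes for such ratios were chosen after their values were seen.

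The loaders CDC6 and CDT1 fell, while the inhibitor geminin was not lower on the TMM scale. CDC6 (chromosome 17, 40287879 to 40304657), the ATPase that joins ORC to load the MCM ring, had 45.6, 44.4 and 45.4 CPM with DMSO, 23.4, 23.1 and 22.6 with the lapatinib combination, 23.3, 22.6 and 21.6 with the nilotinib combination and 26.5, 26.8 and 26.8 with 1.0 μM THZ531. The groups did not overlap with DMSO, and the 9 libraries of the 3 weak treatments spanned 42.0 to 48.6 CPM (median 45.6). The log2 FC was -0.97 ± 0.055 (SE), -1.002 ± 0.055 and -0.76 ± 0.055, with adjusted p-values of 4.61e-12, 3.14e-12 and 2.76e-10. CDT1, which carries the MCM ring to the origin, had log2 FCs of -0.81, -1.04 and -1.25 and was lower in all 3.

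GMNN encodes geminin, the inhibitor of CDT1. Its libraries had 37.0, 33.3 and 38.1 CPM with DMSO, 47.3, 48.4 and 42.5 and 44.04, 46.7 and 44.9 with the lapatinib and nilotinib combinations and 33.2, 29.5 and 35.3 with 1.0 μM THZ531. Both combinations lay above every DMSO library, and 1.0 μM THZ531 overlapped with DMSO. The rises of 0.35 (adjusted p = 0.000963) and 0.32 (adjusted p = 0.00203) on the log2 scale turned to -0.33 and -0.30 under mitochondrial mRNA scaling, neither of them called there. With 1.0 μM THZ531 the log2 FC was -0.15 (adjusted p = 0.13), and under mitochondrial mRNA scaling it was called lower at -0.69.

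The 6 subunits of the helicase ring itself, MCM2 to MCM7, did not fall beyond a log2 FC of -0.22 on the TMM scale. With the lapatinib combination 4 were higher and 1 lower, and with the nilotinib combination and 1.0 μM THZ531 5 were higher and 0 lower on the TMM scale, while none was higher under mitochondrial mRNA scaling. Their sum was 983 ± 21.6 CPM with DMSO, 1163 ± 65.1 with the lapatinib combination, 1260 ± 76.7 with the nilotinib combination and 1290 ± 44.5 with 1.0 μM THZ531 (SD, n = 3). MCM7 (chromosome 7, 100092728 to 100101397, minus strand), with the highest log2 FC of the ring in both combinations, had 263, 257 and 275 CPM with DMSO, 398, 353 and 364 with the lapatinib combination, 431, 380.3 and 359.6 with the nilotinib combination and 352, 399 and 378 with 1.0 μM THZ531. All 9 libraries of the strong treatments lay above all 3 DMSO libraries. The log2 FC of 0.49 ± 0.07 (SE, adjusted p = 3.32e-06), 0.56 ± 0.07 (adjusted p = 6.03e-07) and 0.51 ± 0.07 (adjusted p = 2.5e-06) became -0.19, -0.06 and -0.03 under mitochondrial mRNA scaling. AP4M1 on the opposite strand overlaps 7.90% of the exon bases of MCM7, and reads of both cannot be told apart in unstranded counts. MCM5 had log2 FCs of 0.47, 0.52 and 0.55, MCM6 of 0.19, 0.38 and 0.43 and MCM2 of 0.25, 0.33 and 0.45, none of them called higher under mitochondrial mRNA scaling, where MCM6 and MCM2 were lower with the lapatinib combination (-0.49 and -0.43).

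MCM3 was the lowest of the ring. It had 82.2, 91.5 and 91.3 CPM with DMSO, 79.6, 71.9 and 76.0 with the lapatinib combination, 87.3, 80.1 and 84.4 with the nilotinib combination and 86.8, 90.1 and 87.4 with 1.0 μM THZ531. Only the lapatinib combination lay wholly below DMSO, at a log2 FC of -0.22 (adjusted p = 0.00882), and the nilotinib combination gave -0.07 (adjusted p = 0.361). MCM4 had means of 285 CPM with DMSO and 288 with the lapatinib combination. It was higher with the nilotinib combination (0.20) and 1.0 μM THZ531 (0.28) on the TMM scale and lower with both combinations under mitochondrial mRNA scaling (-0.67 and -0.42).

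Of the 3 MCM proteins outside the ring, MCM10 and MCM9 fell in every strong treatment, while MCM8 was not lower on the TMM scale. MCM10 (chromosome 10, 13161558 to 13211110), which helps to activate the helicase at origin firing, had 45.7, 48.7 and 43.6 CPM with DMSO, 15.9, 19.7 and 18.0 with the lapatinib combination, 18.0, 19.6 and 20.9 with the nilotinib combination and 18.1, 12.3 and 16.8 with 1.0 μM THZ531. No library of the strong treatments reached the range of DMSO or of the 3 weak treatments (34.2 to 46.5 CPM (median 44.9)). The log2 FC was -1.36 ± 0.13 (SE), -1.24 ± 0.13 and -1.55 ± 0.13, with adjusted p-values of 9.32e-09, 3.92e-08 and 2.11e-09. MCM9, which works with MCM8 in homologous recombination, was lower by 0.78, 0.96 and 1.09 on the log2 scale, from a DMSO mean of 6.0 CPM.

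MCM8 had 33.5, 35.9 and 33.1 CPM with DMSO, 33.2, 31.8 and 32.0 with the lapatinib combination, 35.9, 32.1 and 34.2 with the nilotinib combination and 43.5, 47.3 and 42.6 with 1.0 μM THZ531. The combinations overlapped with DMSO (-0.08, adjusted p = 0.3, for the lapatinib combination), whereas 1.0 μM THZ531 lay above it, with a log2 FC of 0.38 (adjusted p = 5.47e-05) that became -0.16 under mitochondrial mRNA scaling. Under that scaling the combinations were lower than DMSO at -0.76 and -0.62. A readthrough gene on the same strand covers 33.3% of the exon bases of MCM8, so that part of its counts is uncertain.

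Among the genes of origin firing and the CMG helicase, GINS1 fell most of all 50 members, and the other 3 GINS genes were higher in the combinations on the TMM scale. GINS1 (also known as PSF1; chromosome 20, 25407673 to 25448563), a subunit of the GINS complex, had 55.5, 56.1 and 55.0 CPM with DMSO, 5.30, 4.004 and 4.34 with the lapatinib combination, 5.498, 4.57 and 6.50 with the nilotinib combination and 11.8, 12.8 and 10.1 with 1.0 μM THZ531. The DMSO libraries were over 4 times the highest library of the strong treatments, and the combinations lay below 1.0 μM THZ531 without overlap. The log2 FC was -3.61 ± 0.13 (SE, adjusted p = 5.66e-15), -3.33 ± 0.13 (adjusted p = 1.49e-14) and -2.26 ± 0.12 (adjusted p = 2.76e-12). GINS2 was higher at 0.37, 0.40 and 0.30 and GINS4 at 0.21, 0.28 and 0.46, in neither case under mitochondrial mRNA scaling, where GINS4 was lower in both combinations (-0.47 and -0.34). The ratio of GINS1 to GINS2 level per kb was 1.46 ± 0.113 with DMSO, 1.41 ± 0.192 with lapatinib, 1.37 ± 0.139 with nilotinib and 0.887 ± 0.0286 with 0.1 μM THZ531 (SD, n = 3). It was 0.0918 ± 0.00519 with the lapatinib combination, 0.111 ± 0.0282 with the nilotinib combination and 0.246 ± 0.0343 with 1.0 μM THZ531.

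GINS3 showed the opposite calls. It had 23.5, 23.0 and 25.3 CPM with DMSO, 28.1, 34.0 and 32.0 with the lapatinib combination, 27.0, 30.8 and 31.6 with the nilotinib combination and 19.1, 12.9 and 21.8 with 1.0 μM THZ531. The combinations lay above DMSO (0.39, adjusted p = 0.0124, and 0.32, adjusted p = 0.0384), which turned to -0.30 and -0.31 under mitochondrial mRNA scaling, and 1.0 μM THZ531 lay below it (-0.42, adjusted p = 0.00856). The fall rested on 1.0 μM THZ531 replicate 2, the lowest of its group, without which the log2 FC was -0.23 and not called. The call with the lapatinib combination was lost without its replicate 2 (0.33), and that with the nilotinib combination without its replicate 2 or 3 or DMSO replicate 1 or 2 (0.27 to 0.30).

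Both subunits of the kinase that triggers firing fell, though by unequal amounts. CDC7 (chromosome 1, 91500851 to 91525764), its catalytic subunit, had 26.9, 22.2 and 27.8 CPM with DMSO, 5.84, 6.98 and 5.89 with the lapatinib combination, 5.98, 5.39 and 6.31 with the nilotinib combination and 7.51, 7.34 and 7.59 with 1.0 μM THZ531, with no overlap between DMSO and the strong treatments. Its log2 FC was -2.04 ± 0.092 (SE), -2.12 ± 0.092 and -1.78 ± 0.091 (adjusted p = 1.5e-13, 1.01e-13 and 1.85e-12). DBF4, its activating subunit, fell by 0.45, 0.50 and 0.94, from 104, 86.6 and 103 CPM in the DMSO libraries. The ratio of CDC7 to DBF4 level per kb was 0.297 ± 0.00713 with DMSO and 0.0989 ± 0.00351, 0.0975 ± 0.0113 and 0.176 ± 0.0499 in the strong treatments (SD, n = 3). CDC45 was called in none of the combinations and was higher with 1.0 μM THZ531 (0.34), though not under mitochondrial mRNA scaling, where it was lower in both combinations (-0.63 and -0.50).

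**Figure D2:**
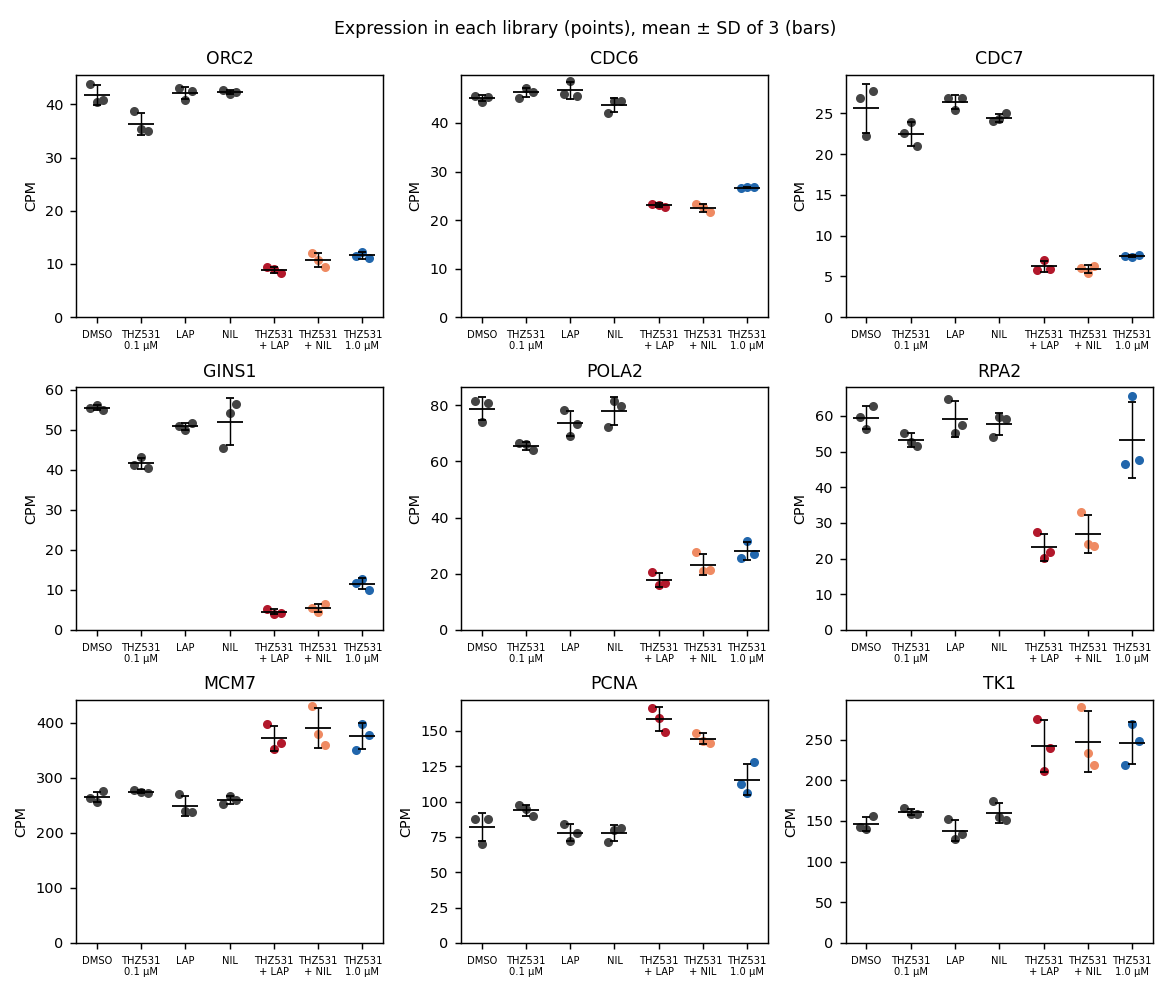
Level in CPM (vertical axes from 0, TMM scaling) of 9 replication genes in each of the 21 libraries, with points for libraries and bars for the mean ± SD of 3. ORC2, CDC6, CDC7, GINS1 and POLA2 lie in all 9 libraries of the strong treatments below all others, RPA2 does so in the combinations only, and MCM7, PCNA and TK1 lie above DMSO on this scale but were not called higher under mitochondrial mRNA scaling.

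On the TMM scale the clamp rose, while the subunits of its loader moved in different directions. PCNA (chromosome 20, 5114953 to 5126622, minus strand), the sliding clamp of the DNA polymerases, had the highest log2 FC of all 50 members with the lapatinib combination. Its libraries had 87.8, 70.2 and 87.5 CPM with DMSO, 167, 159 and 149 with the lapatinib combination, 149, 143 and 142 with the nilotinib combination and 112.5, 106 and 128 with 1.0 μM THZ531, and all 9 of the strong treatments lay above the DMSO range. The log2 FC of 0.95 ± 0.089 (SE, adjusted p = 8.33e-09), 0.82 ± 0.089 (adjusted p = 7.43e-08) and 0.50 ± 0.088 (adjusted p = 4.94e-05) became 0.26, 0.19 and -0.05 under mitochondrial mRNA scaling, none of them called. RFC4 (chromosome 3, 186789900 to 186806482, minus strand), a subunit of the clamp loader, had 42.4, 37.5 and 40.4 CPM with DMSO, 12.5, 11.4 and 12.1 with the lapatinib combination, 13.4, 12.3 and 11.0 with the nilotinib combination and 11.4, 11.3 and 11.9 with 1.0 μM THZ531. The 3 strong treatments overlapped with each other and lay far below DMSO, with log2 FCs of -1.74 ± 0.08 (SE), -1.71 ± 0.08 and -1.80 ± 0.08 (adjusted p = 2.06e-13, 2.73e-13 and 2.93e-13). RFC1, the large subunit, fell by 0.53, 0.49 and 0.53, while RFC2 had log2 FCs of 0.08, 0.17 and 0.15 with no call on the TMM scale and was lower under mitochondrial mRNA scaling (-0.60, -0.45 and -0.38). RFC3 was higher in the combinations (0.42 and 0.33) on the TMM scale only, and RFC5 was lower with the lapatinib combination (-0.27), with WSB2 overlapping 5.72% of its exon bases on the other strand. That call of RFC5 held in 23 of 31 alternative settings of the analysis. The ratio of RFC4 to RFC2 level per kb went from 0.898 ± 0.0421 with DMSO to 0.258 ± 0.0254, 0.245 ± 0.0130 and 0.234 ± 0.0243 (SD, n = 3).

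In polymerase alpha-primase, 3 of the 4 subunits fell and the catalytic subunit did not. POLA2 (chromosome 11, 65261962 to 65305985), the accessory subunit of the polymerase, had 81.6, 74.0 and 80.8 CPM with DMSO, 20.8, 16.0 and 16.6 with the lapatinib combination, 27.6, 21.1 and 21.2 with the nilotinib combination and 25.7, 31.6 and 26.9 with 1.0 μM THZ531. No strong treatment reached the DMSO range, and the lapatinib combination was the lowest, with log2 FCs of -2.15 ± 0.11 (SE, adjusted p = 1.43e-12), -1.76 ± 0.11 (adjusted p = 2.56e-11) and -1.49 ± 0.11 (adjusted p = 3.73e-10). A readthrough gene covers 16.8% of the exon bases of POLA2. POLA1 (chromosome X, 24693918 to 24996986), the catalytic subunit, had 26.9, 25.6 and 24.0 CPM with DMSO, 42.9, 38.1 and 39.5 with the lapatinib combination, 43.1, 39.9 and 41.1 with the nilotinib combination and 40.2, 42.1 and 41.9 with 1.0 μM THZ531. It lay above DMSO in all 9 libraries, and its log2 FCs of 0.66 ± 0.068 (SE), 0.70 ± 0.068 and 0.70 ± 0.068 (adjusted p = 3.53e-08, 1.57e-08 and 1.82e-08) became -0.03, 0.08 and 0.16 under mitochondrial mRNA scaling. The ratio of POLA2 to POLA1 level per kb was 4.79 ± 0.375 with DMSO and 0.683 ± 0.0576, 0.870 ± 0.106 and 1.05 ± 0.0989 in the strong treatments (SD, n = 3), so that their order reversed in both combinations. PRIM1, the catalytic subunit of primase, fell by 1.41, 1.27 and 1.11 on the log2 scale, and PRIM2, its large subunit, by 0.76, 0.48 and 0.63. PRIM2 has a near-identical duplicated copy in the genome, and 10.9% of the exon bases of PRIM1 are shared with a readthrough gene, so that their counts are uncertain to that extent.

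The 8 subunits of polymerases delta and epsilon moved in both directions on the TMM scale. With the lapatinib combination 4 were higher and 3 lower, and with the nilotinib combination and 1.0 μM THZ531 5 were higher and 2 lower, with 0 higher under mitochondrial mRNA scaling. POLD3 (chromosome 11, 74592582 to 74669341), an accessory subunit of polymerase delta, had 26.1, 26.3 and 25.6 CPM with DMSO, 7.32, 7.63 and 6.65 with the lapatinib combination, 7.40, 6.99 and 7.49 with the nilotinib combination and 9.89, 8.86 and 9.87 with 1.0 μM THZ531. These groups lay below DMSO without overlap, at log2 FCs of -1.85 ± 0.077 (SE), -1.83 ± 0.077 and -1.45 ± 0.075 (adjusted p = 4.38e-14, 5.59e-14 and 2.37e-12). POLD2, another accessory subunit, was the member with the highest DMSO level per kb of transcript (173 CPM per kb) and was higher at 0.69, 0.66 and 0.57, not under mitochondrial mRNA scaling. The ratio of POLD3 to POLD2 level per kb went from 0.0396 ± 0.00155 with DMSO to 0.00685 ± 0.000993, 0.00707 ± 0.000716 and 0.00984 ± 0.00141 (SD, n = 3). The catalytic subunits moved little, with log2 FCs of 0.12, 0.16 and 0.28 for POLD1 and -0.23, -0.12 and 0.03 for POLE. POLD1 was higher with the nilotinib combination and 1.0 μM THZ531 on the TMM scale and lower with the nilotinib combination under mitochondrial mRNA scaling (-0.45), and a readthrough gene covers 8.63% of its exon bases.

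POLE4 (chromosome 2, 74958643 to 74970128), a small histone-fold subunit of polymerase epsilon, rose most in this group. It had 38.9, 38.7 and 41.4 CPM with DMSO, 80.2, 65.6 and 69.4 with the lapatinib combination, 80.8, 68.03 and 63.1 with the nilotinib combination and 59.4, 71.0 and 69.1 with 1.0 μM THZ531. Every library of the strong treatments lay above DMSO, at log2 FCs of 0.86, 0.83 and 0.75 (adjusted p = 6.12e-07, 9.39e-07 and 4.25e-06) that were 0.17, 0.22 and 0.21 and not called under mitochondrial mRNA scaling. Its partner POLE3 had log2 FCs of 0.66, 0.52 and 0.35, likewise not called under that scaling. POLE2, the second subunit of polymerase epsilon, was lower by 0.32, 0.30 and 0.33. Its calls held in 23, 24 and 25 of 31 alternative settings of the analysis. POLD4 was higher by 0.34, 0.37 and 0.38 on the TMM scale only, with 21.3% of its exon bases in a readthrough gene.

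RPA, the complex of 3 subunits that covers single-stranded DNA, differed between the combinations and the high dose in RPA2 only. RPA2 (chromosome 1, 27891524 to 27914797, minus strand), its middle subunit, had 59.6, 56.3 and 62.7 CPM with DMSO, 27.5, 20.2 and 21.8 with the lapatinib combination, 33.0, 24.1 and 23.4 with the nilotinib combination and 46.6, 65.7 and 47.7 with 1.0 μM THZ531. Both combinations lay below DMSO without overlap, and replicate 2 of 1.0 μM THZ531 lay above all DMSO libraries while the other two lay below them. The log2 FC was -1.36 ± 0.14 (SE, adjusted p = 3.15e-08), -1.15 ± 0.14 (adjusted p = 3.48e-07) and -0.16 ± 0.14 (adjusted p = 0.31). Without that replicate 2 the value for 1.0 μM THZ531 was -0.34 and was called. RPA3, the smallest subunit, had 35.9, 32.1 and 42.1 CPM with DMSO, 68.7, 47.6 and 52.8 with the lapatinib combination, 58.0, 51.0 and 41.6 with the nilotinib combination and 44.2, 52.0 and 53.2 with 1.0 μM THZ531. The nilotinib combination overlapped with DMSO and the other two groups did not, and the log2 FCs of 0.62 (adjusted p = 0.000563), 0.45 (adjusted p = 0.00724) and 0.44 (adjusted p = 0.00887) became -0.06, -0.17 and -0.10 under mitochondrial mRNA scaling. The call with the nilotinib combination was lost without its replicate 1 (0.34), and that with 1.0 μM THZ531 without DMSO replicate 2 (0.35). RPA1, the large subunit, had log2 FCs of 0.48, 0.54 and 0.61, not called under mitochondrial mRNA scaling. The ratio of RPA2 to RPA1 level per kb was 0.909 ± 0.0276 with DMSO, 0.252 ± 0.0175 with the lapatinib combination, 0.281 ± 0.0210 with the nilotinib combination and 0.533 ± 0.0698 with 1.0 μM THZ531 (SD, n = 3).

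Per kb of transcript, RRM2 and RRM1 had 169 and 133 CPM per kb with DMSO, after POLD2 the highest levels of the 50 genes. Both belong to the genes of nucleotide supply. RRM2 (chromosome 2, 10122568 to 10211010), the small subunit of ribonucleotide reductase, had 573, 508 and 568 CPM with DMSO, 366, 308 and 306 with the lapatinib combination, 372, 324 and 299 with the nilotinib combination and 441, 527 and 443 with 1.0 μM THZ531. The combinations lay below DMSO and 1.0 μM THZ531 overlapped with it, at log2 FCs of -0.75 ± 0.10 (SE, adjusted p = 1.31e-06), -0.73 ± 0.10 (adjusted p = 2.01e-06) and -0.23 ± 0.1 (adjusted p = 0.0507). The last value stood at the threshold and was called without any 1 of 7 libraries, at -0.22 to -0.32. RRM1, the large subunit, was higher at 0.40, 0.43 and 0.41, not under mitochondrial mRNA scaling, and the ratio of RRM2 to RRM1 level per kb was 1.26 ± 0.0140 with DMSO and 0.570 ± 0.0173, 0.566 ± 0.0172 and 0.814 ± 0.0604 in the strong treatments (SD, n = 3).

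TK1 (chromosome 17, 78174079 to 78187204, minus strand), the thymidine kinase of the S phase, had 143, 140.2 and 156 CPM with DMSO, 276, 212 and 240.0 with the lapatinib combination, 290.2, 233 and 219 with the nilotinib combination and 218, 269.9 and 248 with 1.0 μM THZ531. All 9 libraries of the strong treatments exceeded all DMSO libraries, at log2 FCs of 0.73, 0.76 and 0.74 (adjusted p = 5.42e-06, 3.55e-06 and 4.68e-06), which were 0.04, 0.14 and 0.21 and not called under mitochondrial mRNA scaling. TYMS, thymidylate synthase, had log2 FCs of 0.69, 0.77 and 0.82, also not called under that scaling. ENOSF1 on the opposite strand overlaps 39.9% of the exon bases of TYMS, so that part of its counts is uncertain.

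The single treatments at the doses used in the combinations changed few of the 50 genes. With 0.1 μM THZ531 alone, 2 members were lower and 0 higher, against 4.31% and 1.78% of all tested genes. By an unadjusted p under 0.05, 9 were lower and 8 higher (11.4% and 7.84% of all tested genes), and DESeq2 called 3 lower and 3 higher. ORC3, a subunit of the ORC core, had 34.8, 31.1 and 36.4 CPM with DMSO and 24.6, 23.3 and 22.4 with 0.1 μM THZ531, without overlap (log2 FC -0.54 ± 0.11, adjusted p = 0.00457). In the strong treatments it was at 33.3, 24.1 and 26.2 with the lapatinib combination, 35.8, 29.4 and 29.1 with the nilotinib combination and 31.2, 37.8 and 33.4 with 1.0 μM THZ531, and the low dose overlapped with the lapatinib combination but lay below the other two. GINS1 had 41.3, 43.1 and 40.4 CPM with 0.1 μM THZ531, below all DMSO libraries (log2 FC -0.42 ± 0.11, adjusted p = 0.032), a call that was lost when any of the 6 libraries compared was left out. Lapatinib and nilotinib alone lowered 0 and raised 0 members, against 0.0561% lower and 0.256% higher (lapatinib) and 0.0998% and 0.243% (nilotinib) of all tested genes. At an unadjusted p under 0.05, 4 were lower and 0 higher with lapatinib (3.32% and 3.84% of all tested genes). With nilotinib 1 was lower and 1 higher (4.51% and 5.15%), and DESeq2 called 0 with either inhibitor. The 95% intervals of all 50 log2 FCs lay between -0.54 and 0.40 with lapatinib and between -0.51 and 0.40 with nilotinib.

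The effect of 0.1 μM THZ531 in the presence of an inhibitor was compared with its effect in DMSO by an interaction test. With lapatinib the effect was lower for 19 members and higher for 16, against 32% and 28.2% of all tested genes. With nilotinib it was lower for 20 and higher for 14 (31.2% and 25.6%). The lowest interactions were those of GINS1 (-3.07 with lapatinib and -2.82 with nilotinib on the log2 scale), followed with lapatinib by ORC2 (-2.05), CDC7 (-1.89), RFC4 (-1.80), POLA2 (-1.78), ORC1 (-1.66), POLD3 (-1.60), ORC5 (-1.40) and PRIM1 (-1.23). RPA2, MCM10, CDC6, PRIM2, MCM9, DBF4, RRM2, ORC6, CDT1 and ORC4 were also lower in both tests, and POLE2 with nilotinib. Higher in both were MCM6, RRM1, MCM7, GINS4, MCM5, RPA1, POLD2, POLE3, POLE4, TK1, TYMS, POLA1 and PCNA, with MCM2, POLD4 and RPA3 in addition with lapatinib, and under mitochondrial mRNA scaling none was higher. ORC3 was higher with nilotinib (0.41), a test that includes its low values with 0.1 μM THZ531 alone, and this too was lost under mitochondrial mRNA scaling.

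To compare the combinations with a high dose of THZ531 alone, both were tested against 1.0 μM THZ531. The lapatinib combination was lower for 18 members and higher for 7, against 16.1% and 12.8% of all tested genes, and the nilotinib combination was lower for 7 and higher for 6 (13% and 11.2%). GINS1 and RPA2 differed most. GINS1 was lower by 1.35 ± 0.12 (SE, adjusted p = 2.27e-07) and 1.07 ± 0.12 (adjusted p = 2.75e-06) on the log2 scale with the lapatinib and nilotinib combinations, and RPA2 by 1.20 ± 0.14 (adjusted p = 3.04e-06) and 0.99 ± 0.14 (adjusted p = 2.65e-05). RRM2 (-0.52 and -0.50), MCM8 (-0.46 and -0.38), POLD3 (-0.41 and -0.39), CDC7 (-0.26 and -0.34) and CDC6 (-0.21 and -0.24) were also lower in both combinations than at the high dose. POLA2 (-0.66), ORC2 (-0.38), PRIM1, ORC3, CDC45, MCM4, POLE, GINS4, MCM6, MCM3 and MCM2 were lower with the lapatinib combination, with log2 FCs of -0.30 to -0.20 for those from PRIM1 on, and were not called with the nilotinib combination.

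On the other side, GINS3 was higher in both combinations than with 1.0 μM THZ531 (0.81 ± 0.13 and 0.73 ± 0.13, adjusted p = 0.000115 and 0.000352), and remained so under mitochondrial mRNA scaling (0.66 and 0.65). GMNN (0.50 and 0.47), DBF4 (0.49 and 0.44), RFC3 (0.47 and 0.39), PCNA (0.45 and 0.32) and POLE3 (0.31 and 0.17) were higher in both combinations on the TMM scale, and CDT1 (0.44) with lapatinib. None of these 6 was higher under mitochondrial mRNA scaling. There 10 and 5 members were lower, beside 2568 and 1553 of the 16036 tested genes. Left without 1.0 μM THZ531 replicate 2, the lapatinib combination was lower for 11 members instead of 18 and the nilotinib combination higher for 3 instead of 6, and without replicate 3 of the lapatinib combination 11 were lower. Between both combinations, 0 members differed in either direction (0.736% lower and 0.73% higher of all tested genes with the lapatinib combination). By an unadjusted p under 0.05, 7 were lower and 1 higher (6.3% and 6.21% of all tested genes), and DESeq2 called 2 lower and 0 higher. The 95% intervals of the differences between the combinations lay between -0.62 and 0.54 over all 50 members, and the largest difference, that of POLA2, was -0.39 (adjusted p = 0.0845).

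**Figure D3:**
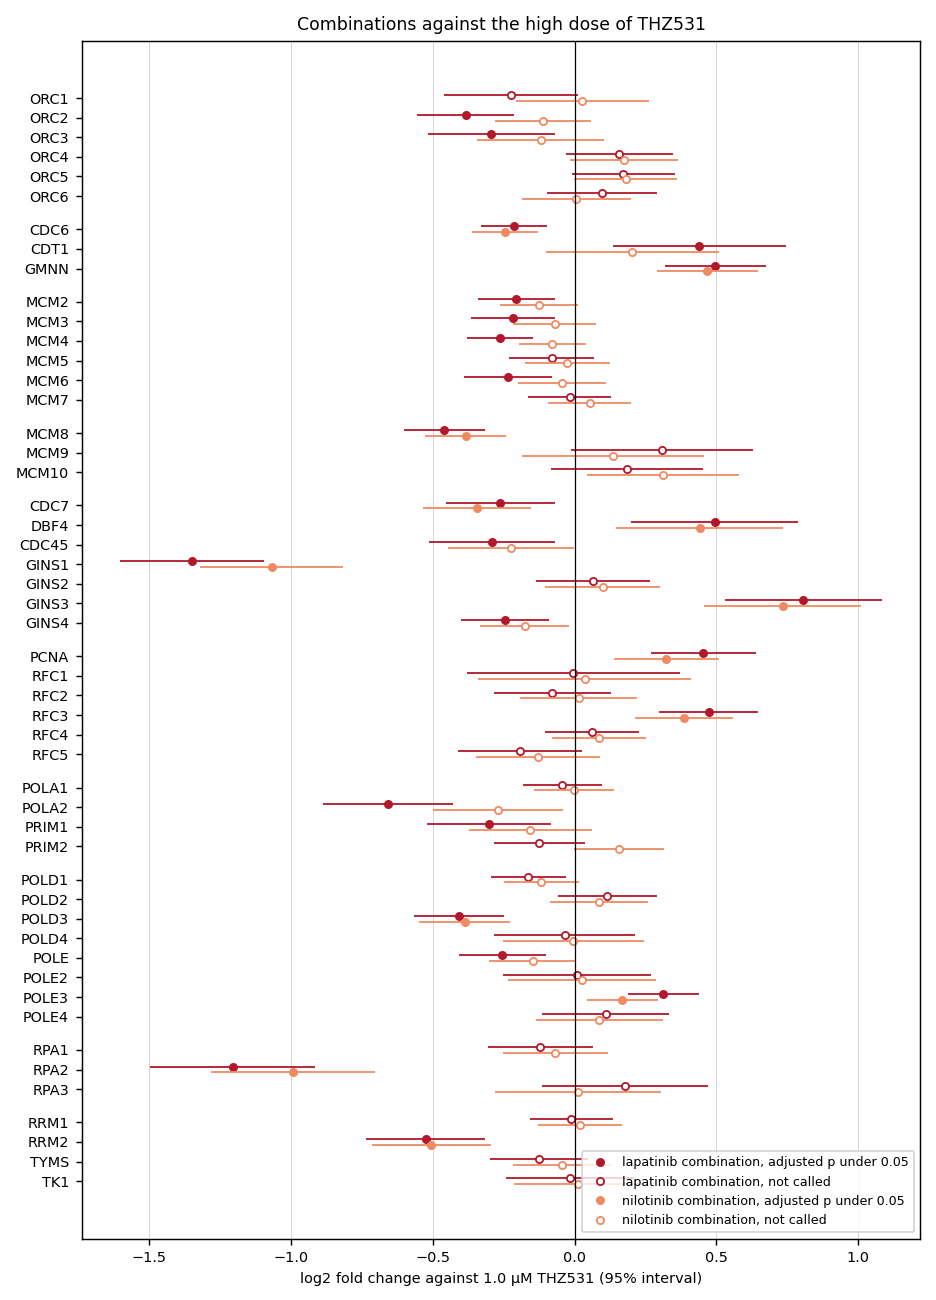
Log2 FC of the lapatinib combination (dark red) and the nilotinib combination (orange) against 1.0 μM THZ531 (horizontal axis, TMM scaling) for the 50 replication genes, with 95% intervals and filled points for an adjusted p-value under 0.05. GINS1 and RPA2 lie furthest to the left and GINS3 furthest to the right, and of the rises GINS3 was the only one also called under mitochondrial mRNA scaling.

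The genes that fell tended to be longer than those that rose on the TMM scale. Across the 50 genes, log2 FC and the genomic span of the MANE transcript correlated at a Spearman's rho of -0.35 with the lapatinib combination, -0.31 with the nilotinib combination and -0.25 with 1.0 μM THZ531, compared with -0.15, -0.11 and -0.11 across 13548 tested genes with such a transcript. Log2 FC also correlated with the mean level with DMSO, at a rho of 0.29, 0.33 and 0.37 across the 50 genes. Across the 13548 genes these values were 0.08, 0.11 and 0.06, and which of these features matters was not tested. These are correlations across genes that share the same libraries, and genes are not independent replicates. With the lapatinib combination 3 of 8 members up to 10 kb were lower, 3 of 12 from 10 to 20 kb, 7 of 12 from 20 to 40 kb, 8 of 12 from 40 to 80 kb and 4 of 6 above 80 kb. The shares of all tested genes lower in these bins were 29.4%, 41.4%, 44.9%, 47.5% and 42.9%. Against this order, POLA1 at 303 kb and RPA3 at 82.1 kb were higher on the TMM scale and CDT1 at 5.47 kb was lower. AATAAA, the core letters of the polyadenylation signal, was counted on the sense strand of the introns, since loss of CDK12 activity is known for polyadenylation within introns. The members lower with the lapatinib combination held a median of 28 such sites (0 to 354, n = 25) and those higher on the TMM scale a median of 7.5 (0 to 265, n = 20). Per 10 kb of intron the medians were 9.78 and 7.38. The rho of site number with log2 FC was -0.39, -0.37 and -0.36 in the 3 strong treatments across the members and -0.14, -0.10 and -0.11 across 13222 tested genes. The deposited counts are per gene, and where within a gene the reads ended was not analysed here.

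**Figure D4:**
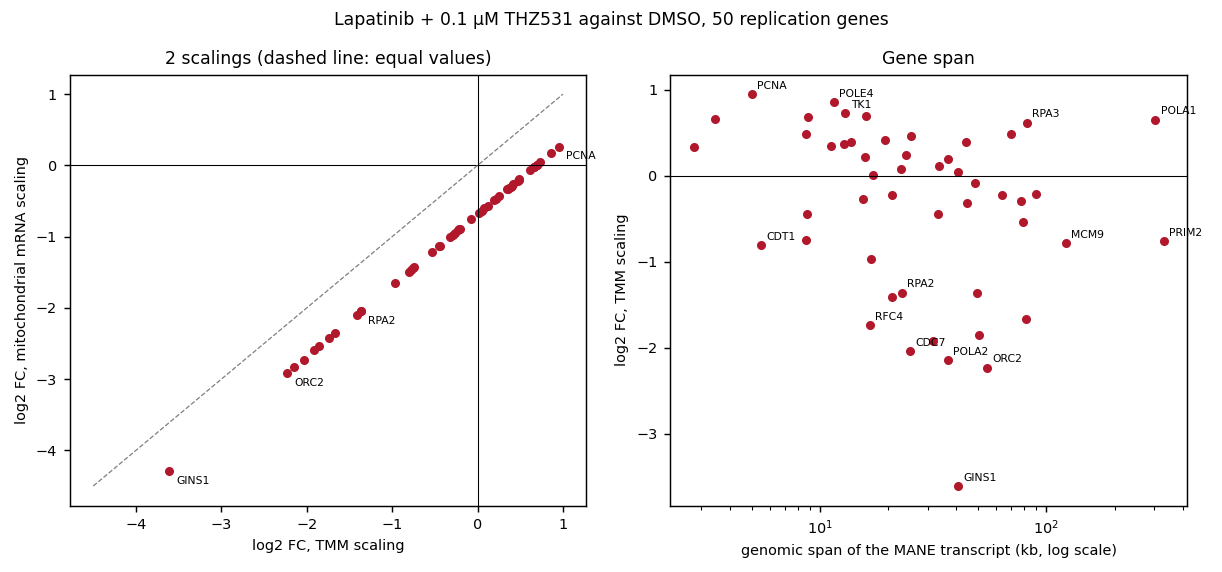
Left, log2 FC of the 50 genes with the lapatinib combination under TMM scaling (horizontal axis) and under mitochondrial mRNA scaling (vertical axis), with equal values on the dashed line. Right, log2 FC under TMM scaling against the genomic span of the MANE transcript in kb (log scale). All points on the left lie below the dashed line, GINS1 from -3.61 to -4.29 and PCNA from 0.95 to 0.26, and on the right the fallen genes lie mostly above 20 kb while POLA1 lies above 0 at 303 kb on the TMM scale.

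Of 43 other genes of the pathway that are not among the 50, 25 were lower and 10 higher with the lapatinib combination (median log2 FC -0.53), 24 lower and 11 higher with the nilotinib combination (-0.50) and 25 lower and 11 higher with 1.0 μM THZ531 (-0.46), with 0 higher under mitochondrial mRNA scaling in each. Among all tested genes, 37.8%, 37.3% and 36.8% were lower and 34.3%, 33.7% and 33.1% higher in the same order. Under mitochondrial mRNA scaling 5.3%, 4.83% and 4.35% of all tested genes were higher. The 3 lowest with the lapatinib combination were CCNE2 (-2.42), the cyclin E2 that activates CDK2 at the start of S phase, ASF1A (-2.02), a histone chaperone, and CHAF1A (-1.98), the large subunit of chromatin assembly factor CAF-1. The 2 highest were DUT (0.94), which removes dUTP, and SSRP1 (0.75), a subunit of the histone chaperone FACT, both of them higher on the TMM scale only. With 0.1 μM THZ531, lapatinib or nilotinib alone, 0 of the 43 were called in either direction by edgeR.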

How the data were processed

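RNA of Hs578T cells was measured in 21 libraries of 7 groups, grouped by the treatment in the labels. The authors deposited raw counts per gene, without normalization. Per the submitters' processing notes, reads were aligned to GRCh38 with HISAT2 2.1.0 and counted with featureCounts, and the study used DESeq2. Counting was per gene on unstranded libraries, so that overlapping genes cannot be told apart, and the counting unit (pairs or ends) is not given in the sources used here. Even counts made up 61.6% to 66.4% of counts from 1 to 20. Gene IDs were matched to NCBI names for 27745 genes, which held 99.98% of counts. Replicates differed by more than sampling noise (chi-square over its degrees of freedom 7.55 to 138).

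Counts were filtered with filterByExpr, scaled by TMM and fitted in edgeR 4.0.16 (R 4.3.3, limma 3.58.1) with glmQLFit, 1 mean per group and all 21 libraries, and contrasts were tested with glmQLFTest and Benjamini-Hochberg adjustment over 16036 genes. The script was tested on simulated data. CPM are on the TMM scale, and levels per kb use the length of the MANE transcript (GENCODE v44). Coordinates, promoters and names came from RefSeq (GRCh38.p14).

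The 50 genes, their 10 roles, the 43 other pathway genes, the 14 markers and the alternatives were chosen with earlier results of these data known. Values in every library are given for the lowest and highest member of each role by log2 FC of the lapatinib combination, and members called in a single treatment, an interaction or a direct comparison are named. CDC7 was shown in addition. Of the other pathway genes the 3 lowest and 3 highest were to be named, and 1 of these is not reported here. The alternatives were RLE size factors, library size alone, upper-quartile and mitochondrial mRNA scaling, no filter, a minimum of 10 counts in each library, halved counts, the replicate number as a block, only the groups compared, DESeq2 1.42.0 and each library left out in turn. Counting error limits low genes, and no interval is given beyond those of the fits. Proteins, viability and splicing were not analysed here.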

Additional observations from a re-analysis of the deposited data

Results flagged for a closer look

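For the named replication genes below, the effect of 0.1 μM THZ531 differed with and without a tyrosine kinase inhibitor by edgeR's interaction test (adjusted p under 0.05). Values are differences of log2 FC, and no explanation was tested. With lapatinib the effect was lower for 19 and higher for 16 of the 50 genes, against 32% and 28.2% of all tested genes. Lower were GINS1 (-3.07), ORC2 (-2.05), RFC4 (-1.80), POLA2 (-1.78), POLD3 (-1.60), RPA2 (-1.19), MCM10 (-1.19), CDC6 (-1.06), RRM2 (-0.65) and ORC4 (-0.48). Higher on the TMM scale, and in no case under mitochondrial mRNA scaling, were PCNA (0.82), POLA1 (0.82), TK1 (0.68), POLE4 (0.67), RPA3 (0.55) and MCM7 (0.52).

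With nilotinib the effect was lower for 20 and higher for 14 genes, against 31.2% and 25.6% of all tested genes. Lower were GINS1 (-2.82), RFC4 (-1.82), ORC2 (-1.78), POLD3 (-1.61), POLA2 (-1.48), MCM10 (-1.09), CDC6 (-0.99), RPA2 (-0.94), RRM2 (-0.63) and ORC4 (-0.37). Higher on the TMM scale, and again not under mitochondrial mRNA scaling, were POLA1 (0.84), PCNA (0.70), MCM7 (0.53), TK1 (0.49) and POLE4 (0.49).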

How the results depend on the processing

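Under every alternative, 18 of the 25 members lower with the lapatinib combination, 18 of 20 with the nilotinib combination and 16 of 20 with 1.0 μM THZ531 were called lower. Of the 20, 22 and 21 higher ones, 8, 10 and 12 were called higher under every alternative apart from mitochondrial mRNA scaling, which lowers the log2 FC of all genes in these treatments, and 0 under that scaling. Scaled to mitochondrial mRNAs, 0 members were higher in any strong treatment or interaction, 31 were lower with the nilotinib combination, and against 1.0 μM THZ531 the lapatinib combination had 10 lower and 1 higher and the nilotinib combination 1 higher. Of all 16036 tested genes, 2568 were lower and 955 higher with the lapatinib combination against 1.0 μM THZ531, and 859 were higher with the nilotinib combination. In that scaling 15, 16 and 14 of the higher members turned to a log2 FC below 0. Among the genes given in every library these were GMNN (-0.33 and -0.30) and GINS3 (-0.30 and -0.31) in the lapatinib and nilotinib combinations, MCM7 (-0.19, -0.057 and -0.032) and RPA3 (-0.065, -0.17 and -0.10) in all 3 strong treatments, POLA1 with the lapatinib combination (-0.027) and MCM8 (-0.16) and PCNA (-0.047) with 1.0 μM THZ531. Upper-quartile scaling turned MCM3 with 1.0 μM THZ531 to 0.20. By library size alone, 8, 10 and 12 members were higher in the 3 strong treatments and 9 and 7 in the lapatinib and nilotinib interactions. For alternatives other than mitochondrial mRNA scaling, the shares of all tested genes were not counted. Member counts under them, here and below, therefore do not compare the members with other genes.

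With 0.1 μM THZ531, 4 members were lower by library size alone and 6 with only the groups compared. By mitochondrial mRNA scaling 0 members were lower, beside 240 of the 16036 tested genes. Higher were 2 members with only the groups compared and 3 by DESeq2. Against 1.0 μM THZ531, the lapatinib combination had 11 lower with RLE size factors and 6 with only the groups compared, and the nilotinib combination 4. The lapatinib against the nilotinib combination had 1 lower by library size alone and 2 by DESeq2. The causes were not tested, and the fits of only the groups compared rested on fewer libraries.

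Leaving out each library gave 1 to 3 members lower and 0 to 1 higher with 0.1 μM THZ531 (1 lower without any DMSO or 0.1 μM THZ531 library, 1 higher without lapatinib replicate 1 or 1.0 μM THZ531 replicate 2). Against 1.0 μM THZ531 it gave 11 to 18 lower and 5 to 8 higher for the lapatinib combination and 6 to 10 lower and 3 to 6 higher for the nilotinib combination, and 0 to 2 lower between the combinations (2 without lapatinib combination replicate 1 or 1.0 μM THZ531 replicate 2, 1 without nilotinib replicate 1 or nilotinib combination replicate 3).

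With the replicate number as a block, 1 member was lower in the lapatinib than in the nilotinib combination (0 without the block), and 120 of 120 values of the named genes kept their direction and call. The numbers do not establish a pairing, as deviations of libraries with the same number correlated at -0.83 to 0.892 (mean 0.152) and 8 of 21 libraries correlated best with their own number.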
